A study of Sus scrofa domesticus with 4 samples.

Results

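BCL2A1 was set beside 7 other genes that restrain or carry out cell death, namely BCL2L1, MCL1, BAX, CASP8, CFLAR, FAS and BIRC5, in endometrium treated with orexin B. Members were the array probes whose RefSeq transcript accession belongs to one of these 8 genes. The rule found 14 of the 43603 probes on the array, for 6 of the 8 genes and of the 3029 genes named on the array. MCL1 and BAX matched no probe and were dropped. The list was selected on the treated over untreated ratio of BCL2A1 in earlier results of these same arrays, with the other genes put beside it. Every ratio of the 6 genes is therefore given as a description.

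The samples were 4 two-colour arrays of porcine endometrium, the mucosa that lines the uterus. Explants of about 100 mg came from the uterine horns of 4 Large White x Polish Landrace gilts, 7 to 8 months old and on days 15 to 16 of gestation. Treated explants received 10 nM orexin B, a hypothalamic neuropeptide, for 24 h, and untreated explants were incubated for the same time without it, after 2 h of preincubation for both. Each array held treated RNA in one dye and untreated RNA in the other. By the dye labels, Cy5 marked the treated RNA of arrays 1 and 3, whereas Cy3 marked that of arrays 2 and 4. Cultures were set up in duplicate, and no label ties an animal to an array, so the array is the replicate and its spread may be partly technical. Explants are whole pieces of mucosa kept in culture, so fewer cells of a type and less RNA per cell cannot be told apart in any ratio given here.

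Apoptosis runs along 2 connected routes. In the mitochondrial route, BAX-type proteins open the outer membrane, and BCL2-type inhibitors such as BCL2A1, BCL2L1 and MCL1 hold them and their BH3-only activators back. In the death receptor route, FAS gathers caspase-8 into a complex that activates it, and CFLAR (c-FLIP), an inactive relative of caspase-8, controls that step. Inhibitor of apoptosis proteins such as XIAP act on active caspases. In mice and humans BCL2A1 is a target of the transcription factor NF-kappaB and is found mainly in cells of the blood lineages. At the stage sampled, the porcine conceptus attaches to the uterine epithelium, and immune cells take part in remodelling the mucosa.

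The arrays gave unequal signal. In Cy5, 82.4% to 86.7% of spots were well above background on arrays 1, 3 and 4, against 46.8% on array 2, which alone was scanned on a different day. In Cy3 the share was 27.8% to 36.2%. A probe was tested if all 4 treated channels, or all 4 untreated ones, had it well above background. This kept 13783 probes, 12 of them among the 14 probes of these genes. Ratios are log2 of treated over untreated after loess normalisation, so that -1 stands for a halved level. The fitted ratio removes a dye term and carries the moderated standard error of limma (±, n = 4 arrays). At an adjusted p under 0.05 (limma, Benjamini-Hochberg over all tested probes), 0 of the 13783 probes (0%) were called and 0 of the 12 member probes. The smallest adjusted p was 0.999. Unadjusted, 495 probes (3.59%) had a p under 0.05, of which 258 (1.87%) were lower and 237 (1.72%) higher in treated RNA, and 1 of the 12 member probes, that of BCL2A1, was among the lower ones. Without array 2, 15 probes (0.109%) had an adjusted p under 0.05, and BCL2A1 was not among them (limma, adjusted p = 0.0695).

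BCL2A1 stood lower in treated than in untreated explants on each of the 4 arrays, and its fitted ratio was the lowest of the members. Its single probe (A_72_P441349, NCBI Gene 100156860) had log2 ratios of -1.32, -0.63, -1.69 and -1.46 on arrays 1 to 4. Array 2 gave the smallest difference, and arrays 3 and 4, of opposite dye orientation, gave the 2 largest. The fitted ratio was -1.27 ± 0.21 (95% interval -1.76 to -0.79), a level 2.42 times lower in treated explants. BCL2A1 had the smallest p of all tested probes (limma, adjusted p = 0.999), but it was chosen for this ratio, so that rank is a description. Among all tested probes, 3.61% had a ratio below 0 on all 4 arrays and 3.69% had one above 0 on all 4.

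BCL2A1 was lower in treated RNA in both dye orientations. Where treated RNA was in Cy5, the mean ratio was -1.50, and where it was in Cy3 it was -1.04. In terms of dyes, Cy5 over Cy3 was below 0 on arrays 1 and 3 (-1.32 and -1.69) and above 0 on arrays 2 and 4 (0.63 and 1.46). Its sign turned with the labelled orientation of the dyes on every array. The dye term of the fit was -0.23 (limma, adjusted p = 0.619 over all probes).

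Channel levels showed how far the groups lay apart. After normalisation, the log2 level of BCL2A1 was 8.91, 10.40, 9.79 and 9.32 in treated RNA of arrays 1 to 4, against 10.22, 11.03, 11.48 and 10.78 in untreated RNA. The treated level of array 2 was above the untreated level of array 1, so the groups overlapped although each array showed the lower level in its treated channel. The means were 9.60 ± 0.64 in treated and 10.88 ± 0.53 in untreated RNA (SD, n = 4 each). Of the tested probes, 0.196% had treated levels that all lay below the untreated ones and 0.225% had the opposite, and 0 of the 12 member probes did either.

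The scanned signal of the BCL2A1 spot was well above background in each of the 8 channels. Its median brightness was 752.5, 1068.5, 1932 and 700 units in the treated channel of arrays 1 to 4, against 966.5, 2072.5, 1770 and 2402 units in the untreated channel. Local backgrounds were 32 to 58 units in the treated and 34 to 44.5 units in the untreated channel. On array 3 the unnormalised treated signal, in Cy5, was thus the higher one, and the ratio of -1.69 there rests on the dye normalisation. On array 1, also with treated RNA in Cy5, the unnormalised signals lay closer together than the ratio of -1.32. That ratio thus rests in part on the dye normalisation too. On arrays 2 and 4 the unnormalised difference was larger than the normalised one. In the authors' value table, which uses the scanner software's dye correction in place of loess, BCL2A1 stood at -1.54, -0.77, -1.43 and -2.20 on the same arrays. All 4 values were below 0 in both versions, but the lowest was that of array 4 in the authors' table and that of array 3 after loess.

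**Figure D1:**
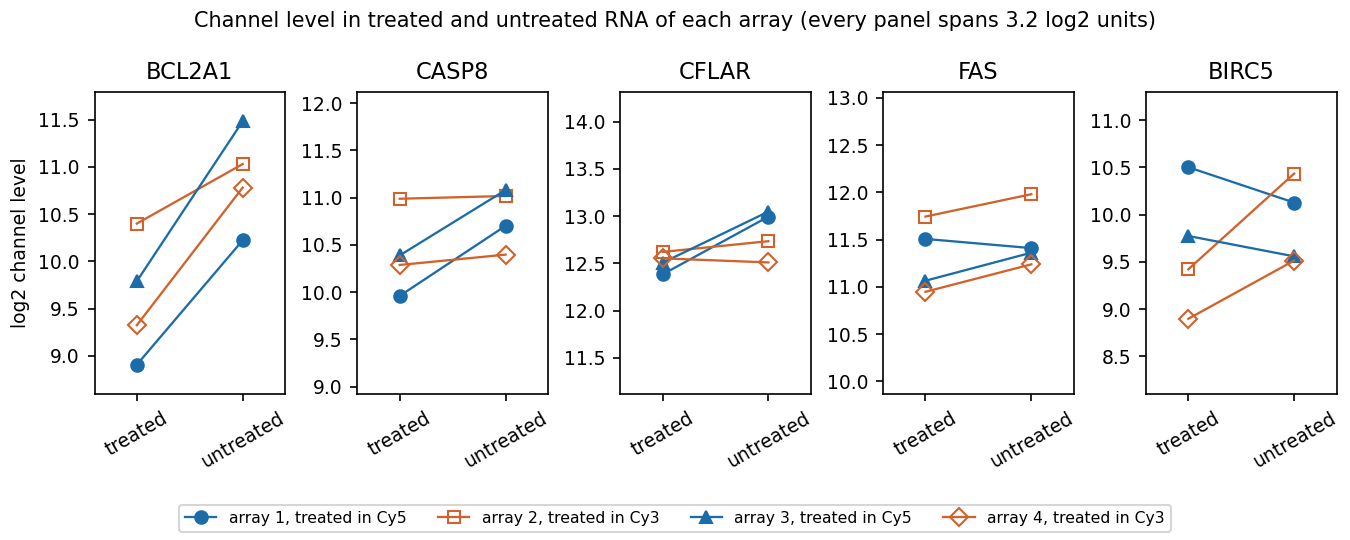
Log2 channel level in treated (left) and untreated (right) RNA of each array for the brightest tested probe of 5 genes, with 1 line per array, filled blue for treated RNA in Cy5 and open orange for treated RNA in Cy3. For BCL2A1 the treated levels run from 8.91 to 10.40 and the untreated ones from 10.22 to 11.48, and all 4 lines rise to the right; for BIRC5 the lines of the 2 dye orientations run in opposite directions.

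The other inhibitor of the BCL2 type on the array, BCL2L1, which encodes BCL-XL, gave no ratio that could be tested. Its probe (A_72_P035621) was well above background in 2 of the 4 Cy5 channels and in 0 of the 4 Cy3 channels, which is 1 treated and 1 untreated channel. Its log2 level was 7.51, 8.19, 7.26 and 7.66 in treated RNA, against 7.67, 7.79, 7.66 and 7.41 in untreated RNA. The groups overlapped throughout, at means of 7.65 ± 0.39 in treated and 7.63 ± 0.16 in untreated RNA (SD, n = 4 each). A difference in BCL2L1 was not detectable with this dim probe.

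FAS, the death receptor, had 2 probes, of which 1 was tested. The tested probe (A_72_P232422) had ratios of 0.10, -0.24, -0.30 and -0.29 on arrays 1 to 4 and a fitted ratio of -0.18 ± 0.18. Array 1 stood above 0 and apart from the other arrays. The treated levels were 11.51, 11.74, 11.06 and 10.95, against 11.41, 11.98, 11.36 and 11.24 in untreated RNA, and they overlapped. The second probe (A_72_P444375) was well above background in 3 Cy5 channels and 0 Cy3 channels, and its level of 7.82 ± 0.34 in treated RNA and 7.67 ± 0.50 in untreated RNA (SD, n = 4 each) has the same limit as that of BCL2L1.

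CASP8, the initiator caspase that FAS recruits, had 3 tested probes with fitted ratios of -0.39 ± 0.17, -0.29 ± 0.17 and -0.14 ± 0.17. The brightest (A_72_P443353) stood at -0.74, -0.03, -0.69 and -0.11 on arrays 1 to 4. Arrays 1 and 3, with treated RNA in Cy5, carried nearly all of the difference. The same split held for both other probes: the mean ratio was -0.74 and -0.37 where treated RNA was in Cy5, against 0.15 and 0.10 where it was in Cy3. Levels of the brightest probe were 9.96, 10.99, 10.39 and 10.29 in treated and 10.70, 11.02, 11.08 and 10.40 in untreated RNA, and the groups overlapped. The 3 probes share one transcript and are not replicates of the treatment.

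CFLAR, the inactive caspase-8 relative, was the member with the most probes. All 5 were tested, with fitted ratios between -0.43 and -0.29, and they differed from each other by at most 0.14. On a single array the probes lay further apart, from -1.36 to -0.20 on array 1. The brightest probe (A_72_P745587) stood at -0.61, -0.11, -0.54 and 0.04 on arrays 1 to 4, with a fitted ratio of -0.31 ± 0.17. The lowest fitted ratio was that of probe A_72_P715378, at -0.43 ± 0.19, with -1.36, 0.05, -0.67 and 0.25 on the 4 arrays. For both of these probes the low values lay on arrays 1 and 3. For probe A_72_P748776 (-0.34 ± 0.19) they lay on the opposite pair, with -0.20, -0.86, 0.03 and -0.31 on arrays 1 to 4. Treated levels of the brightest probe were 12.38, 12.62, 12.51 and 12.55, against 12.99, 12.73, 13.05 and 12.51 in untreated RNA. This probe was close to even between the groups on array 4, unlike A_72_P748776, so the 5 CFLAR probes did not share one array pattern.

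BIRC5 encodes survivin, which belongs to the inhibitor of apoptosis proteins by sequence and also serves chromosome segregation in dividing cells. Its brighter probe (A_72_P303219) had ratios of 0.37, -1.01, 0.22 and -0.62 on arrays 1 to 4. The sign was positive on the arrays with treated RNA in Cy5 (mean 0.29) and negative on those with treated RNA in Cy3 (mean -0.81), so Cy5 exceeded Cy3 on all 4 arrays. The fitted ratio was -0.26 ± 0.18, beside a larger dye term of 0.55 (limma, adjusted p = 0.302). The second probe (A_72_P496341) stood at -0.10, -0.72, -0.16 and 0.12, with a fitted ratio of -0.22 ± 0.20 and a dye term of 0.09. The 2 probes gave nearly the same fitted ratio from different array patterns, and array 2 had the lowest value in both. Levels of the brighter probe were 10.50, 9.42, 9.77 and 8.90 in treated RNA, against 10.13, 10.43, 9.56 and 9.51 in untreated RNA.

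**Figure D2:**
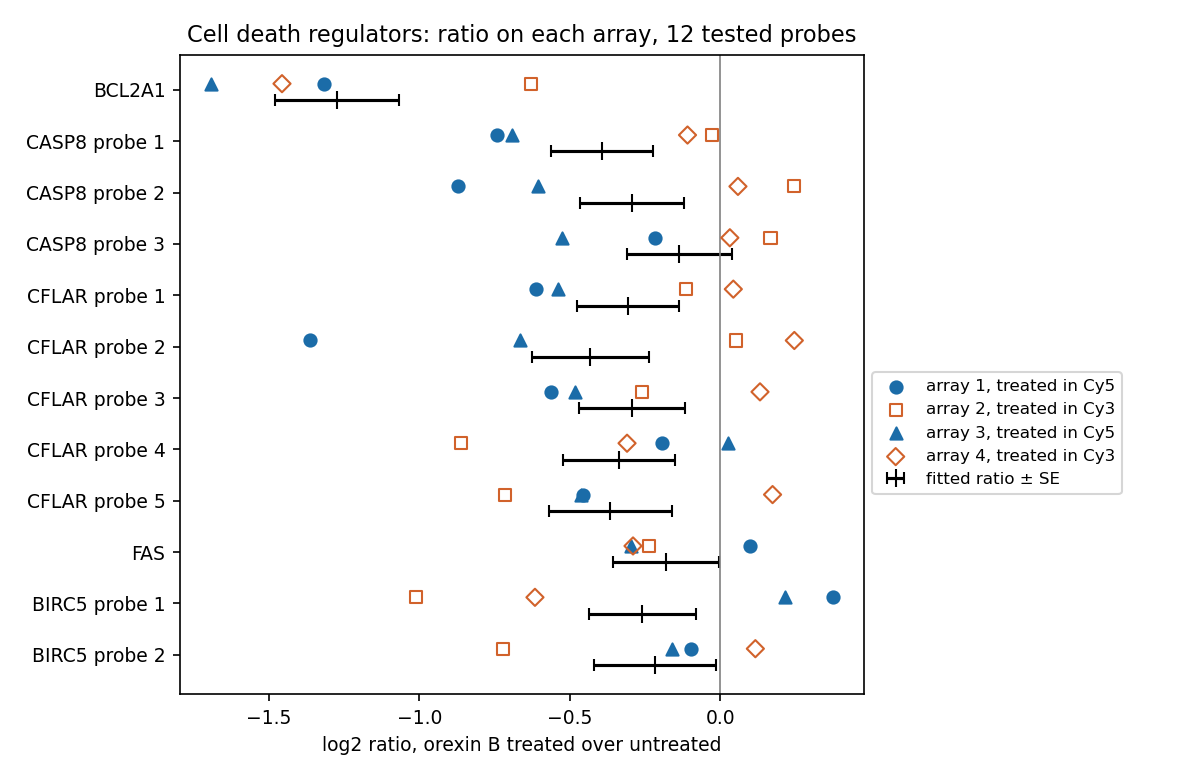
Log2 ratio of treated over untreated on each of the 4 arrays (symbols, filled blue for treated RNA in Cy5 and open orange for treated RNA in Cy3) and fitted ratio ± moderated SE (black) for the 12 tested probes of 5 genes. BCL2A1 lies below 0 on 4 of 4 arrays, as does the first CASP8 probe (nearest value -0.03), and every other probe has at least 1 array at or above 0.

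Over all members, 12 of 12 tested probes had a fitted ratio below 0, where 46.9% of all tested probes did, but 7 of 12 with median centring, where 11% of all tested probes did. These 12 probes come from 5 genes and share the 4 arrays, so they are far from 12 separate observations. BCL2A1 was chosen for its low ratio, so its place in the count was fixed. Of all 1637 tested genes, 56.1% had a ratio below 0. Centring each array on its median in place of loess moved the median of all tested probes from 0.02 with loess to 0.28, and all 12 stayed below that median. With this centring CFLAR stood at 0.06, FAS at 0.12 and BIRC5 at 0.02, whereas BCL2A1 (-1.06) and CASP8 (-0.14) stayed below 0. The dye term was larger in size than the fitted ratio for 64% of all tested probes. Among the members this held for 2 of 3 CASP8 probes, 1 of 5 CFLAR probes and 1 of 2 BIRC5 probes, and for neither BCL2A1 nor FAS.

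The labelling text common to all samples can also be read as treated RNA in Cy5 on every array. The dye label of each array was followed here. Read the other way, BCL2A1 would stand at -0.23, and its 4 arrays would split into 2 signs. CASP8 would stand at -0.32 and CFLAR at -0.27, about as before, while FAS (0.08) and BIRC5 (0.55) would change sign. By that reading 8 of the 12 member probes would be below 0, where 55.5% of all tested probes would. The lower level of BCL2A1 therefore depends on the labelled dye swap, and the array dye labels and the authors' own turning of arrays 2 and 4 both carry that swap.

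Other genes of the 2 apoptotic routes gave the members their setting. Of 74 genes on 8 lists with a role in cell death, 27 had a probe named here and 22 were tested. Of these 22 genes 17 had a ratio below 0 and 5 above, with a median of -0.19, where 56.1% of all 1637 tested genes were below 0 with a median of -0.02. No gene of the lists had an adjusted p under 0.05 in limma. At an unadjusted p under 0.05, 2 were lower (BCL2A1 and CASP1) and 0 higher, where 3.91% of all tested genes were lower and 1.83% higher. With median centring 7 were below 0 and the median was 0.09, a difference of -0.19 from the median of all tested probes. The array medians of the 22 genes were -0.44, -0.09, -0.22 and -0.09. Array 1 thus stood lowest and arrays 2 and 4, with treated RNA in Cy3, were near 0. Without BCL2A1 the fitted median was -0.18. With all arrays read as treated in Cy5, 12 of the 22 were below 0 and the median was -0.10.

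Among BH3-only proteins, the direct antagonists of BCL2A1, 2 genes were tested. PMAIP1 (NOXA), which binds BCL2A1 and MCL1 in humans, stood at -0.20 ± 0.31 and lacked a value on array 2 because of an outlier spot. With outlier spots kept PMAIP1 stood at 0.09, and 2 of 2 genes of the list were above 0. BID, which caspase-8 cleaves to link both routes, stood at 0.01 ± 0.20, but its probe was not well above background in at least 1 channel. The list had a median of -0.09 (0.02 with median centring), and dropping array 1 gave 0.06. Among BAX-type effectors, 0 of 3 genes had a probe named here.

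The receptor list had 7 tested genes, 5 below and 2 above 0, with a median of -0.04 (0.22 with median centring). Dropping array 2 gave -0.20. TNFSF10, which encodes the death ligand TRAIL, had the lowest ratio, at -0.57 ± 0.26, but stood at 0.90 on array 2. LTA, the lymphotoxin alpha gene, had the highest, at 0.39 ± 0.26, of which array 3 alone stood at 1.80 and 2 arrays stood below 0. The LTA probe was not well above background in at least 1 channel. Limiting the receptor list to probes above background in every channel left 6 genes, 5 of them below 0, with a median of -0.11. FADD, the adaptor between FAS and caspase-8, named after its value was seen, was at -0.02 ± 0.19. For comparison, FAS stood at -0.18 ± 0.18, CASP8 at -0.39 ± 0.17 and CFLAR at -0.31 ± 0.17.

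Of the 6 tested genes for caspases and the apoptosome, 4 were below and 2 above 0, with a median of -0.14 (0.12 with median centring). Dropping array 2 gave -0.23 and dropping array 4 gave -0.08. CASP1, an inflammatory caspase that matures interleukin 1 beta, was lowest at -0.50 ± 0.19, and below 0 on all 4 arrays (-0.60, -0.73, -0.59 and -0.08). It was also the one tested gene of the necroptosis and pyroptosis list (with median centring -0.35). In at least 1 channel its probe was not well above background. Limiting the caspase list to probes above background in every channel left 5 genes, 3 of them below 0, with a median of -0.02. CASP10, a second initiator of death receptor signalling, was highest at 0.29 ± 0.28, but array 2 alone gave 1.67 and its 6 probes ran from -0.28 to 0.53.

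Both tested inhibitor of apoptosis genes were below 0 (1 of 2 with median centring), with a median of -0.34 (-0.12 with median centring). XIAP, the direct caspase inhibitor, stood at -0.43 ± 0.19, from -1.57 and -1.09 on arrays 1 and 3 but 0.73 and 0.23 on arrays 2 and 4. Its dye term of -0.91 was larger than its ratio. BIRC5 was the higher of the pair. All 5 tested genes of the DNA damage list were below 0. With median centring 2 of 5 were, and with outlier spots kept 4 of 5. The median was -0.20 (0.13 with median centring). When array 1 was dropped, 3 of 5 were below 0 and the median was -0.02, and without array 4 the median was -0.13. The lowest was MDM2, a ubiquitin ligase, at -0.31 ± 0.17. It was below 0 on all 4 arrays (-0.42, -0.09, -0.42 and -0.31), but its probe was not well above background in at least 1 channel. The 4 genes of the list above background in every channel were all below 0, with a median of -0.18.

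**Figure D3:**
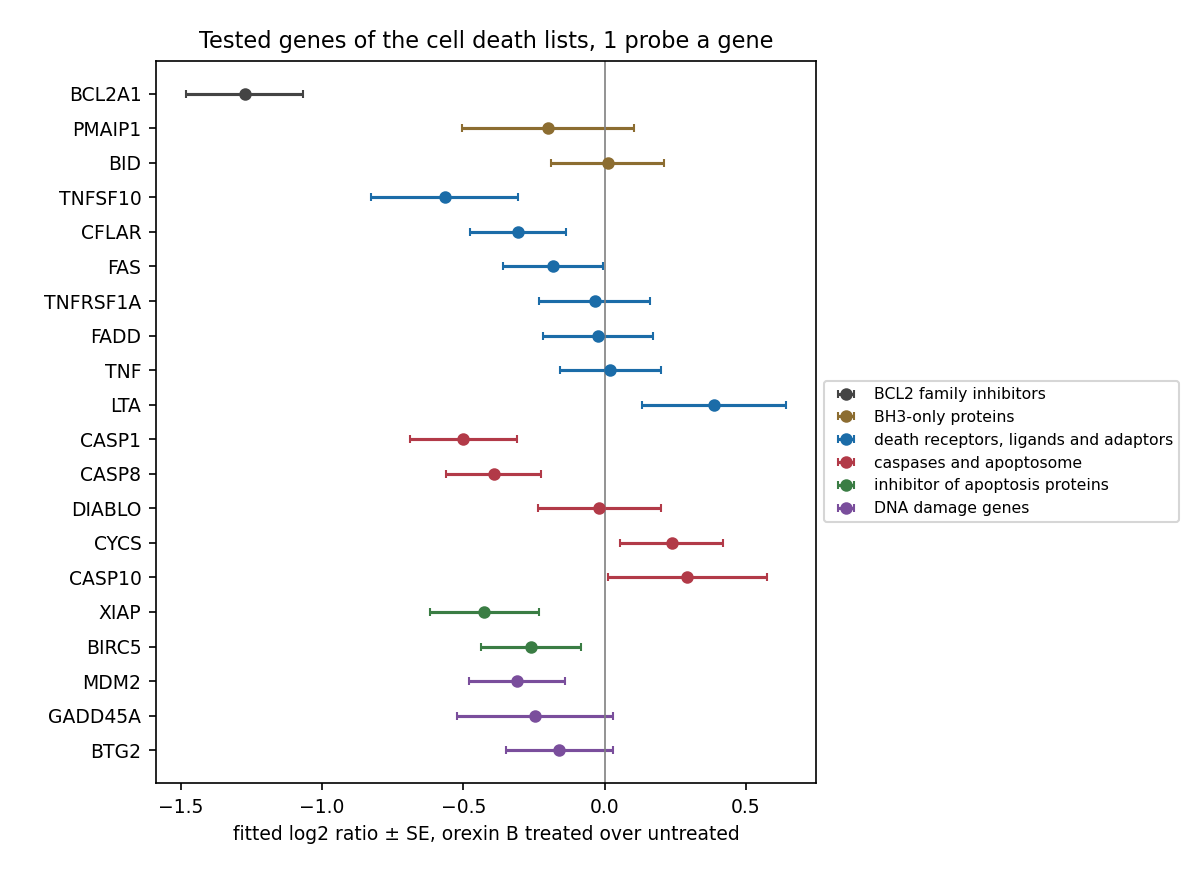
Fitted log2 ratio of treated over untreated ± moderated SE for the tested genes of the cell death lists (2 of the 22 are not shown), 1 probe a gene, coloured by list (a gene on several lists is drawn under the first). BCL2A1 at -1.27 stands apart from the other genes shown, which run from -0.57 (TNFSF10) to 0.39 (LTA).

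NF-kappaB and its targets had 11 tested genes, and 11 of 11 were below 0, with a median of -0.38, but 5 of 11 with median centring, with a median of 0.04, or -0.24 against all tested probes. At an unadjusted p under 0.05, 4 were lower and 0 higher, where 3.91% of all tested genes were lower and 1.83% higher. With all arrays read as treated in Cy5, 7 of 11 were below 0. By the authors' values 9 of 11 were, with a median of -0.48. With outlier spots kept it was 10 of 11, and likewise without array 3 or without array 4. CXCL8, a neutrophil chemokine, was lowest at -0.59 ± 0.17, with -1.16, -0.22, -1.02 and 0.04 on arrays 1 to 4. CCL2, a monocyte chemokine, was highest at -0.02 ± 0.19. The array medians of the list were -0.36, -0.22, -1.04 and 0.09. On array 4 its genes ran from IL1B at -0.90 and NFKBIA at -0.80 to CXCL2 at 0.81, genes named after their values were seen.

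For the division-linked side of BIRC5, only 2 of 15 proliferation genes were tested, with a median of -0.13 (0.12 with median centring). Beside BIRC5 itself this was AURKB, the kinase that works with survivin in cell division, at -0.01 ± 0.19. TOP2A, CDK1, CCNB1 and CDC20 had probes but were not well above background often enough to be tested.

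Of all 1603 other named genes with a tested value on each array, the 5 whose ratios on the 4 arrays lay nearest to those of BCL2A1 were LOC396781, GP91-PHOX, FABP5, CCL5 and CCR7. Nearness was the root mean square difference of the 4 ratios, which was 0.19, 0.29, 0.37, 0.57 and 0.61 log2 units for these genes, against a median of 1.38. LOC396781, which RefSeq also lists as IGHG, stood at -1.21, -0.53, -1.46 and -1.19 on arrays 1 to 4. GP91-PHOX encodes the electron-carrying subunit with which phagocytes make superoxide. Its ratios were -1.01, -0.42, -1.26 and -1.46. FABP5, whose protein carries fatty acids inside cells, was at -0.97, -0.80, -2.33 and -1.47, and the T cell chemokine gene CCL5 at -0.73, -0.13, -1.77 and -0.63. CCR7, a receptor that guides lymphocytes and dendritic cells, stood at -0.47, -0.50, -1.66 and -0.59. The genes were picked on these same 4 ratios, so their likeness to BCL2A1 is fixed by the choice. None of the 5 is a regulator of cell death on the lists used here.

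**Figure D4:**
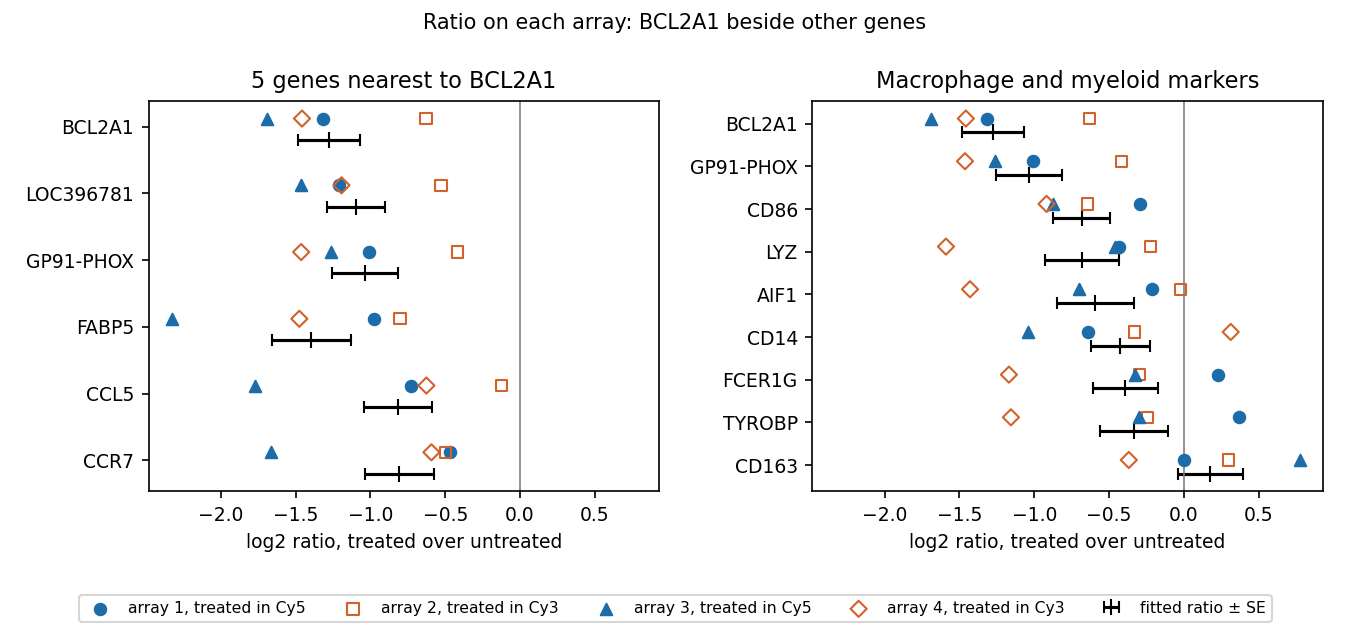
Log2 ratio of treated over untreated on each array (symbols, filled blue for treated RNA in Cy5 and open orange for treated RNA in Cy3) and fitted ratio ± moderated SE (black) for BCL2A1 beside its 5 nearest genes (left) and the 8 tested macrophage and myeloid markers (right). GP91-PHOX, which appears in both panels, lies below 0 on all 4 arrays like BCL2A1. So do CD86, LYZ and AIF1, named after their values were seen, while CD163 has a fitted ratio above 0.

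Markers of the blood lineages, in which BCL2A1 is known in other species, were measured in the same RNA. Of 13 macrophage and myeloid markers, 8 were tested and 7 of these had a ratio below 0, with a median of -0.51 (-0.25 with median centring). They ran from GP91-PHOX at -1.04 ± 0.22 to CD163, a scavenger receptor of macrophages, at 0.18 ± 0.22. The array medians were -0.25, -0.27, -0.58 and -1.16, and without array 4 the fitted median was -0.29. With all arrays read as treated in Cy5, 2 of the 8 were below 0 and the median was 0.17. Only 6 of the 8 were well above background in every channel, 5 of them below 0, with a median of -0.41. Among all tested genes 56.1% were below 0. The summed level of the 8 markers was 9477 to 14250 units in treated RNA, against 10669 to 28137 units in untreated RNA. SPI1 had a probe that was not tested, and CD68, CSF1R, ITGAM and MSR1 had no probe named here. The part of these cells in the ratio of BCL2A1 was not tested.

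All 5 tested T and NK cell markers, of 15, were below 0, from GZMB at -0.38 ± 0.17 to NKG7 at -0.23 ± 0.18 (median -0.27, and -0.27 with median centring). Their array medians were -0.03, -0.65, 0.03 and -0.55, with single markers on both sides of 0 on arrays 1 and 3. With all arrays read as treated in Cy5, 1 of the 5 was below 0 and the median was 0.46. Only 2 of the 5 were well above background in every channel, 2 of 2 below 0, with a median of -0.31. By the authors' values 4 of 5 were below 0 (median -0.41), with CD3G at 0.09. With the scanner software's processed signals and median centring 4 of 5 were too (median -0.48), with CD3G at 0.02. Among all tested genes 56.1% were below 0 after loess. The summed level of the 5 markers was 3546 to 7312 units in treated and 3471 to 11180 units in untreated RNA. Of 4 tested granulocyte and mast cell markers, 3 were below 0 (median -0.16, and 0.06 with median centring). Their median was -0.26 without array 1 and -0.06 without array 3, and 0.47 with all arrays read as treated in Cy5. They ran from S100A8 at -0.73 ± 0.25 to S100A12 at 0.29 ± 0.26, with a summed level of 6917 to 21712 units in treated and 8314 to 30470 units in untreated RNA. Of 5 B cell markers, 3 had a probe and 0 were tested.

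Markers of the resident tissue, and those of trophoblast and conceptus, lay on both sides of 0. Epithelial markers (6 tested) had a median of -0.19 (0.20 with median centring), from CLDN3 at -0.54 ± 0.21 to KRT8 at 0.35 ± 0.32, and their array medians ran from -0.69 on array 1 to 0.52 on array 4. The 3 tested fibroblast markers were all above 0 at their brightest probe, from COL1A2 (0.17 ± 0.20) to DCN (0.23 ± 0.19), with a median of 0.20 (0.58 with median centring). LUM, named after its values were seen, had 2 of its 6 probes below 0. When array 2 was dropped, 1 of the 3 was below 0 and the median was 0.01. When array 3 was dropped, 1 of the 3 was below 0 as well, with a median of 0.28. Without array 1 the median was 0.09, and on array 4 alone it was -0.67. Endothelial markers (5 tested) had a median of -0.08 (0.18 with median centring), from CDH5 at -0.39 ± 0.17 to ENG at 0.28 ± 0.20. Smooth muscle markers (4 tested) had a median of -0.14 (0.16 with median centring), from DES at -0.53 ± 0.38 to MYLK at 0.13 ± 0.17. The MYLK probe was not well above background in at least 1 channel. The 3 smooth muscle markers above background in every channel were all below 0, with a median of -0.21. Trophoblast and conceptus markers (4 tested) had a median of 0.10 (0.39 with median centring), from IL1B2 at -0.42 ± 0.18 to TFAP2C at 1.14 ± 0.19. The 2 probes of TFAP2C stood at 0.55 and 1.14. Ratios of the brighter one were 2.14, 0.41, 1.43 and 0.60 on arrays 1 to 4. Leaving out 1 array turned the sign of 4 of these medians. The epithelial median was 0.13 and the trophoblast median -0.02 without array 2 (-0.0025 without array 3), and the endothelial median was 0.05 and the smooth muscle median 0.04 without array 3. Epithelial, stromal and endothelial markers were thus above background in RNA labelled as endometrium.

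**Figure D5:**
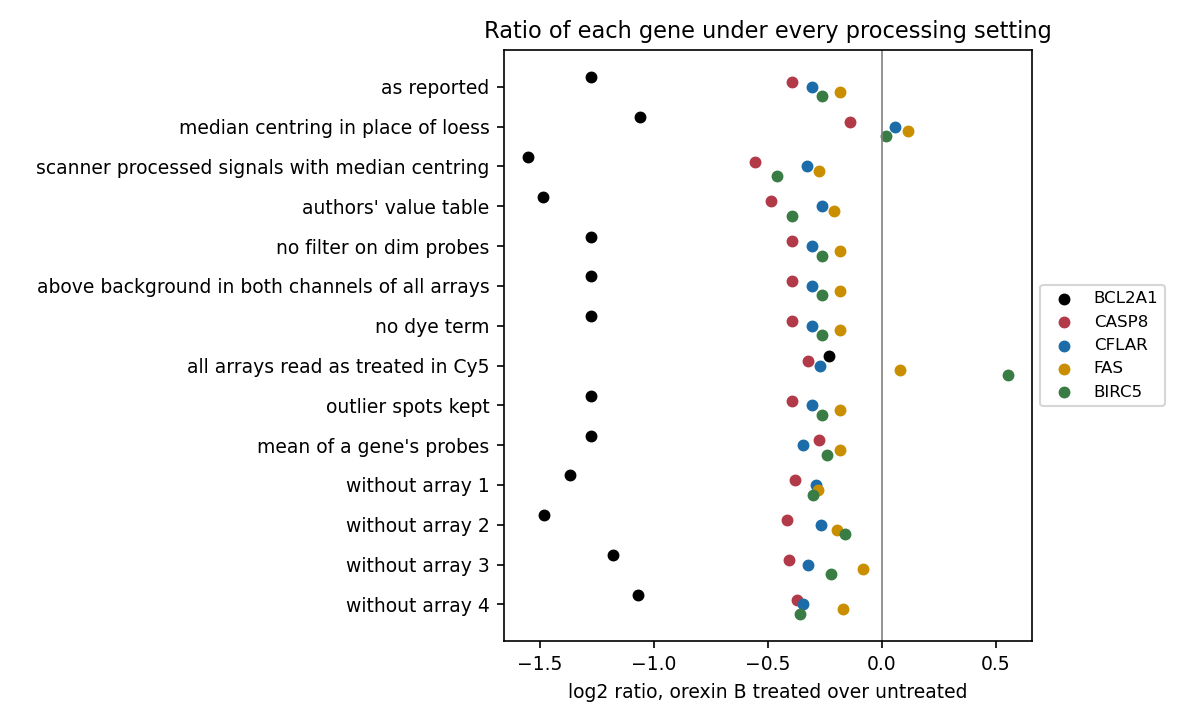
Fitted log2 ratio of treated over untreated for the 5 tested genes as reported (top row) and under each processing alternative (rows below). BCL2A1 lies between -1.55 and -1.06 in each row except the one that reads all arrays as treated in Cy5 (-0.23), while FAS and BIRC5 cross 0 in 2 rows and CFLAR in 1.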

How the data were processed

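Two-colour Agilent arrays (design 026440) were measured on RNA of treated and untreated endometrial explants. Spot and local background intensities were deposited as the scanner software, Agilent Feature Extraction 10.7.3.1, gave them, per the file headers. Its log10 ratio of Cy5 over Cy3 is background and dye corrected, per the file headers. The authors' value table holds log2 ratios that match it in scale wherever the scanner ratio is not 0, with a correlation of 1.00 for arrays 1 and 3 and -1.00 for arrays 2 and 4. It therefore runs as treated over untreated by the dye labels, and its columns are not centred (medians 0.18, 0.29, 0.01 and 0.03). The genome build is not given in the sources used here, so no coordinates are printed.

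Median signals were background corrected (normexp, offset 50) and loess normalised in limma 3.58.1 (R 4.3.3), the curve being fitted without control or outlier spots. The spots of each probe were averaged. Fits had a treatment and a dye term, which left 2 residual and 5.09 prior degrees of freedom. Tests are two-sided. The fit was tested on simulated data. Channel levels were taken after Aquantile scaling between arrays, and summed levels are sums of unlogged channel levels in arbitrary brightness units. The number of arrays limits the precision.

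RefSeq accessions (Sscrofa11.1 table, without versions) named 6700 probes. CYBB was sought as GP91-PHOX. A gene is represented by its brightest tested probe. Named genes are all member probes, the 5 genes nearest to BCL2A1, and the lowest and highest tested gene of each list. Values of 2 listed genes are not reported here. Members and lists were chosen with earlier results of these data known. All 4 arrays lie on 1 slide, and scan day could be examined only by leaving out array 2.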

Additional observations from a re-analysis of the deposited data

Results flagged for a closer look

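In 37 sets of 4 array values for the member probes, 2 held an array far from the other 3 by Dixon's criterion, where chance alone gives about 1 in 20. For FAS (probe A_72_P232422), the ratio on array 1 was 0.10, against -0.30 to -0.24 on the other arrays. For CFLAR (probe A_72_P440606), the untreated level on array 2 was 10.21, against 8.94 to 9.09 on the others. On array 2 the treated level of that probe was also its highest, at 9.50.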

How the results depend on the processing

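Over 13 alternatives, BCL2A1 kept a ratio below 0, from -1.55 to -1.06 in 12 of them, and moved to -0.23 with all arrays read as treated in Cy5. That reading gave 0.082 for FAS and 0.55 for BIRC5. Median centring gave 0.059 for CFLAR, 0.115 for FAS, 0.021 for BIRC5 and 0.087 for the cell death list median, and left 7 of 12 member probes below 0. CASP8 stayed between -0.55 and -0.14. Leaving out each array in turn gave -1.48 to -1.07 for BCL2A1, -0.26 to -0.16 for the cell death list median, -0.28 to -0.08 for FAS, -0.36 to -0.16 for BIRC5 and 12 of 12 member probes below 0 each time. FAS stood at -0.28 without array 1 and -0.08 without array 3, and BIRC5 at -0.16 without array 2. It gave 0 to 15 called probes, the 15 (0.109%) without array 2. Without array 2 BCL2A1 stood at -1.48 (limma, adjusted p = 0.0695). Testing each gene on the mean of its probes called 2 of 1637 genes (0.122%), among them BCL2A1 (limma, adjusted p = 0.0106). BCL2A1 has 1 tested probe, so its ratio was the same there and fewer features were tested. BCL2A1 was also chosen for its ratio on these same arrays, so that call is a description and not a test. Its adjusted p ran from 0.0106 to 1.00 over the alternatives. Called probes numbered 0 in every other alternative, with 270 to 2145 probes at an unadjusted p under 0.05. Of such probes, 1056 were higher and 25 lower with median centring, against 237 higher and 258 lower with loess. Treated and untreated RNA share each array, so the fit on array ratios is already a paired one. Dim spots limit BCL2L1 and the second FAS probe, and 4 arrays limit every ratio. The cause of each shift was not tested.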
